A study of Mus musculus with 4 samples.

Results

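The genes described here encode enzymes that write or erase marks on histones and DNA, proteins that read those marks, and ATP-driven machines that move nucleosomes. They were measured in the seminal vesicle, the male accessory gland that supplies most of the fluid of the ejaculate. The members were all probe sets whose platform annotation gave a single gene symbol of a fixed pattern, such as Ehmt, Ezh, Kdm, Kat, Hdac, Sirt, Dnmt, Prmt, Cbx, Smarc or Chd. The pattern found 79 of 12422 probe sets, which read 60 of 8251 genes. All samples were seminal vesicles of wild-type Nkx3.1 +/+ mice on the C57Bl/6J background at 15 months of age, with no treatment stated, and 1 Affymetrix array was hybridised for each of 4 mice. The series title places them in work on NKX3.1, the histone methyltransferase G9a (gene Ehmt2) and UTY in prostate differentiation. Since the arrays form a single group, there was no contrast of genotype, age or tissue. What can be described is which members gave signal in the gland and how far the 4 mice differed. The labels state no litter or hybridisation day, and with 1 array per mouse, differences between animals and between arrays cannot be told apart. The p-values only set a probe set's spread over these 4 samples against the spread usual on these arrays.

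As background, methyl groups on lysine 9 of histone H3 are laid down by Ehmt2, the Suv39h enzymes and Setdb1 and are bound by heterochromatin protein 1, and they mark silent chromatin. Polycomb complex 2 methylates lysine 27 of the same histone, and Polycomb complex 1 binds that mark. Acetyl groups added by acetyltransferases go with active genes and are removed by deacetylases, which work in complexes with remodelers and the WD-repeat proteins Rbbp4 and Rbbp7. Androgen-driven secretory glands use these complexes as coactivators and corepressors of the androgen receptor.

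Markers of the labelled tissue were present. The secretory gene Svs2, for a main protein of the copulatory plug, had values of 12.45, 12.67, 12.54 and 12.48 in mice 1 to 4, and the luminal keratin gene Krt8 had 8.44, 8.50, 8.43 and 8.63. Each value is a log2 level for a probe set. A probe set was taken as above the background range when it exceeded, on all 4 arrays, that array's 90th percentile over a list of genes typical of other organs (103 genes, 129 probe sets). A gene was taken as above when any of its probe sets was. The limits came to 6.09, 5.83, 6.01 and 6.15 for mice 1 to 4. On this measure 6 of 8 seminal vesicle secretion genes, 10 of 14 luminal epithelial genes and 11 of 13 smooth muscle genes were above the range, as were 2 of 7 basal epithelial and 3 of 21 cell cycle genes. Of other cell types, 7 of 19 macrophage and dendritic cell genes, 6 of 13 fibroblast genes, 4 of 14 T and NK cell genes, 4 of 11 B and plasma cell genes and 2 of 9 endothelial genes were above. Of the other-organ genes that set the limit, 11 of 103 were above. In whole tissue, fewer cells of a type and less RNA per cell cannot be told apart. A value under the limit does not show that a gene was silent, and the level of a probe set is no guide to the level of another gene.

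Of the member genes, 19 of 60 (31.7%) were above the range, against 30.4% of all genes. Of the member probe sets, 19 of 79 (24.1%) were above it, against 24.9% of all probe sets. The members were thus above the range about as often as the rest of the array. By class, all 4 acetyltransferase genes were above, as were 4 of 9 SMARC genes, 3 of 6 zinc-dependent deacetylase genes and 2 of 3 Rbbp genes. The H3K9 methyltransferases had 1 of 3, Polycomb complex 1 had 1 of 4, heterochromatin protein 1 had 1 of 2, sirtuins 1 of 3, DNA methyltransferases 1 of 2 and CHD remodelers 1 of 4. None of the 4 Polycomb complex 2 genes, 7 lysine demethylase genes, 4 arginine methyltransferase genes and 5 other SET-domain genes was above. The classes are small and no test was made between them. With the 75th percentile as limit, 33 member genes (55.0%, against 51.5% of all genes) were above. This looser limit added 3 demethylase and 3 arginine methyltransferase genes, and Polycomb complex 2 and the other SET-domain genes stayed at 0.

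**Figure D1:**
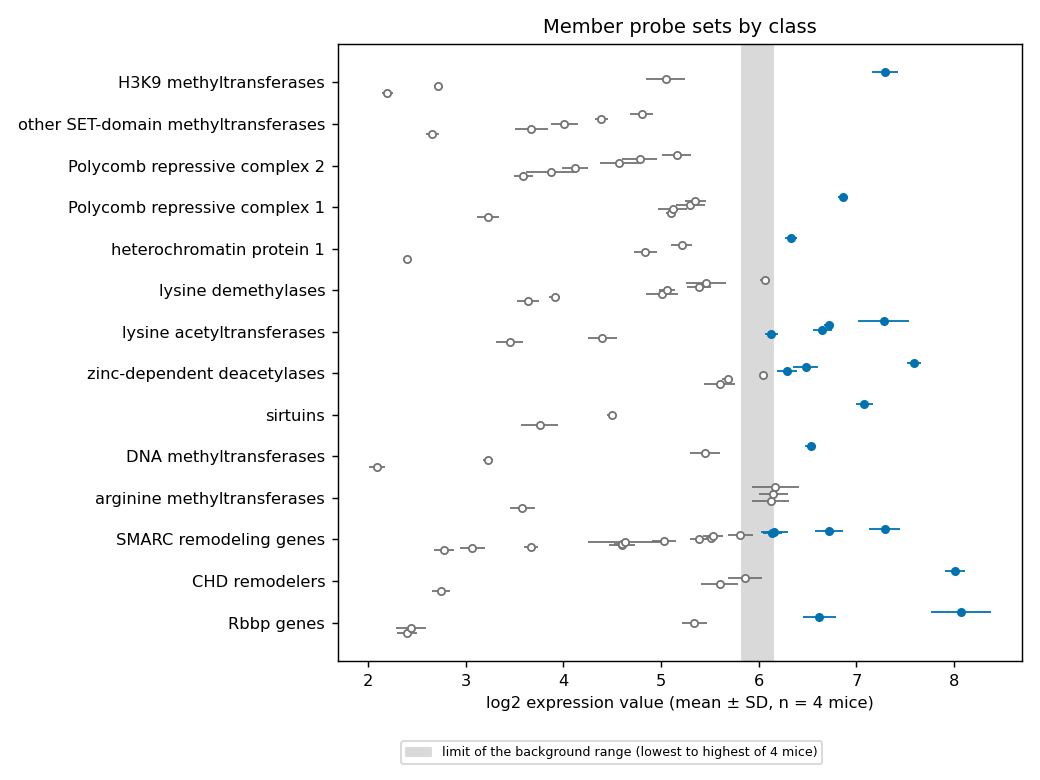
Mean log2 expression value (horizontal axis) with SD over 4 mice for each of the 79 member probe sets, in rows by class. Filled points were above the background range on all 4 arrays (19 probe sets), open points were not, and the grey band spans the limits of the 4 mice, 5.83 to 6.15.

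Of the H3K9 methyltransferases, the enzyme of the series title was above the range. Ehmt2, which makes mono- and dimethylated H3K9 outside constitutive heterochromatin, had 7.23, 7.48, 7.30 and 7.17 in mice 1 to 4. All 4 mice lay well over the limit and within 0.31 log2 units of each other, 1.24-fold. Setdb1, which trimethylates H3K9 with the corepressor Trim28, ran from 4.86 in mouse 4 to 5.33 in mouse 3 by its brighter probe set and 2.27, 2.11, 2.22 and 2.19 by the other. Suv39h2, a pericentric heterochromatin enzyme best known from testis, had 2.68, 2.75, 2.77 and 2.69. Neither gene passed the limit in any mouse. Of the partners of these enzymes, Trim28 was above the range at 7.92, 8.05, 8.15 and 7.87, while Wiz, a zinc finger partner of the G9a complex, was not, at 5.82, 5.57, 5.57 and 5.81.

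The heterochromatin protein 1 genes encode the readers of this mark. Cbx5, for the alpha form, had 6.41, 6.30, 6.27 and 6.34 by the probe set above the range. Its other probe set had 5.06, 5.31, 5.27 and 5.20, under the limit in every mouse. Cbx1, for the beta form, was not above, at 4.94, 4.75, 4.73 and 4.95. A second Cbx1 probe set read 2.40, 2.40, 2.40 and 2.41, with the smallest SD of all members at 0.01. Cbx3, for the gamma form, was annotated together with a pseudogene and so was no member. Its 2 probe sets read 6.09, 6.41, 6.20 and 6.29 in one case and 4.07, 4.03, 4.65 and 4.30 in the other.

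No Polycomb complex 2 gene gave signal over the limit. Ezh2, its main catalytic subunit and a gene of dividing cells, had 4.04, 3.98, 4.27 and 4.17. Ezh1, the catalytic subunit of resting tissue, had 4.80, 5.02, 4.61 and 4.68. Eed, which binds the finished mark, had 5.20, 5.17, 5.30 and 4.95. All of these values stood more than 0.5 log2 units under the limits of their arrays. Suz12, the scaffold subunit, was read by 3 probe sets at 4.65, 4.82, 4.42 and 4.39, at 3.90, 4.14, 3.91 and 3.54, and at 3.57, 3.55, 3.74 and 3.50. All 3 were lowest in mouse 4, as were 20.3% of all probe sets. In Polycomb complex 1, Bmi1, the RING-finger partner of the ubiquitin ligase, was above at 6.78, 6.88, 6.90 and 6.86, and its SD of 0.05 was among the smallest of the members above the range. The chromodomain genes of the complex were not above, with means of 5.35 and 5.10 for Cbx2, 5.30 and 5.12 for Cbx6 and 3.23 for Cbx7.

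Of the remaining SET-domain genes, Nsd1, an H3K36 methyltransferase, had 3.67 ± 0.17 (SD, n = 4) and Setd1a, an H3K4 methyltransferase, had 2.66 ± 0.07. Setd3, which methylates actin rather than histones, had 4.01 ± 0.14, Setd4 had 4.39 ± 0.07 and Setd6, which methylates the NF-kappaB subunit RelA, had 4.80 ± 0.12. Lysine demethylases were likewise under the limit. Kdm3b, an H3K9 demethylase, came closest, at 6.04, 6.08, 6.11 and 6.01, and exceeded it in 2 of 4 mice. Its relative Kdm3a, a coactivator of the androgen receptor, had 5.46 ± 0.20 and Kdm1a, the flavin-dependent demethylase, had 5.06 ± 0.08. The H3K4 demethylases had 3.64 ± 0.11 for Kdm5a and 5.01 ± 0.16 for Kdm5b. The Y-linked Kdm5d had 3.97, 3.96, 3.90 and 3.84 although the tissue is male. The H3K27 demethylase Kdm6a had 5.25, 5.52, 5.32 and 5.46, and Uty, its Y-linked homologue in the series title and no member, had 2.63, 2.76, 2.78 and 2.70. Neither of this pair reached the limit in any mouse.

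The acetyltransferase class had every gene above the range. Kat2b (PCAF) had 7.24, 7.65, 7.08 and 7.14 by one probe set, highest in mouse 2. Its second probe set read 3.50, 3.44, 3.25 and 3.59 and did not share that order. Kat2a (GCN5), the related enzyme of the SAGA coactivator, had 6.09, 6.04, 6.20 and 6.17 and passed by only 0.002 in the mouse nearest the limit. Kat7 (HBO1), a MYST-family enzyme, had 6.79, 6.67, 6.70 and 6.70 by one probe set and 4.50, 4.42, 4.49 and 4.18 by the other. Crebbp (CBP), a broad coactivator of nuclear receptors, had 6.78, 6.61, 6.64 and 6.55. At the 95th percentile limit 3 of these 4 genes remained above.

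Among the deacetylases, the class I gene Hdac1 had 6.19, 6.28, 6.25 and 6.44. Hdac5 had 6.41, 6.63, 6.35 and 6.52 and Hdac7 had 7.64, 7.58, 7.64 and 7.50. Both are class IIa genes, whose products shuttle between nucleus and cytoplasm and bind MEF2 factors. These 3 were above the range in every mouse, and at the 95th percentile limit only Hdac7 was. Hdac2, the partner of Hdac1, had 5.60 ± 0.16 and Hdac3, the enzyme of the NCoR complex, had 5.68 ± 0.06 (SD, n = 4 each). Hdac6, a cytoplasmic tubulin deacetylase, had 6.02, 6.09, 6.03 and 6.03 and exceeded the limit in 2 of 4 mice. Of the NAD-dependent sirtuins, Sirt2, another tubulin deacetylase, was above at 7.12, 7.11, 6.94 and 7.14. The nuclear Sirt1, at 3.76 ± 0.19, and the mitochondrial Sirt3, at 4.50 ± 0.05, were not.

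Dnmt1, the maintenance DNA methyltransferase, was above the range by one probe set at 6.55, 6.45, 6.61 and 6.52, and not by the other at 5.44, 5.25, 5.54 and 5.57. Dnmt3a, which methylates DNA anew, had 3.23 and 2.09 by its 2 probe sets. Of the arginine methyltransferases, Carm1, Prmt1 and Prmt5 sat near the limit and Prmt3 well under it. Carm1, an androgen receptor coactivator, had 6.38, 5.83, 6.20 and 6.28 and missed by 0.003, in mouse 2. Prmt1, the main enzyme of the family, had 6.06, 5.93, 6.38 and 6.10, and Prmt5, which makes symmetric dimethylarginine, had 6.02, 6.03, 6.30 and 6.25. Carm1 would be above without mouse 2 and Prmt5 without mouse 1, so either omission moves the member genes above the range from 19 to 20. Prmt3, a ribosomal protein methyltransferase, had 3.58 ± 0.13 (SD, n = 4).

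Remodeler genes were mixed. Of the BAF (SWI/SNF) complex, Smarca4 (BRG1), the ATPase, had 6.62, 6.79, 6.59 and 6.87. The core subunit Smarcb1 had 6.20, 5.99, 6.20 and 6.18, and the accessory subunit Smarcd1 (BAF60a) had 6.17, 6.07, 6.05 and 6.35. All 3 were above the range, the last 2 by less than 0.1 at their closest. Smarcd2 (BAF60b) was above by a probe set at 7.41, 7.06, 7.34 and 7.36, while its 3 others had means of 5.81, 5.51 and 5.03. Of these only that at 5.03 has a name without an ending for shared or less specific probes. The alternative ATPase Smarca2 (BRM) had 4.56, 5.18, 4.49 and 4.30 and stayed under the limit in every mouse. Smarcc1 had 5.53 ± 0.10, and Smarce1 3.67 ± 0.07. Outside that complex, the ISWI ATPase Smarca5 had means of 5.39 and 3.07 and Smarcad1 of 4.60 by both probe sets. Chd4, the ATPase of the NuRD complex, was above in every mouse, from 7.94 in mouse 1 to 8.16 in mouse 2. Its probe set is of the kind that the array's naming marks as shared within a sequence family. Chd1 had 5.65, 5.97, 6.01 and 5.79 and passed in mouse 2 alone, Chd8 had 5.60 ± 0.19 and Chd7 2.75 ± 0.09. All 4 CHD genes were lowest in mouse 1, where the median deviation of the class from the 4-mouse means was -0.14. Mouse 1 was lowest in 30.4% of all member probe sets and in 20.7% of all probe sets. The class is small, and this was not tested.

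Rbbp7 and Rbbp4 encode histone-binding WD-repeat proteins that NuRD, Sin3 and Polycomb complex 2 share. Rbbp7 had 7.78, 8.50, 8.06 and 7.96 in mice 1 to 4. Rbbp4 had 6.43, 6.85, 6.59 and 6.59. Both were above the range, highest in mouse 2 and lowest in mouse 1. Rbbp6, which the pattern takes in by its name, encodes an E3 ubiquitin ligase and had means of 5.34, 2.44 and 2.40 by its 3 probe sets.

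**Figure D2:**
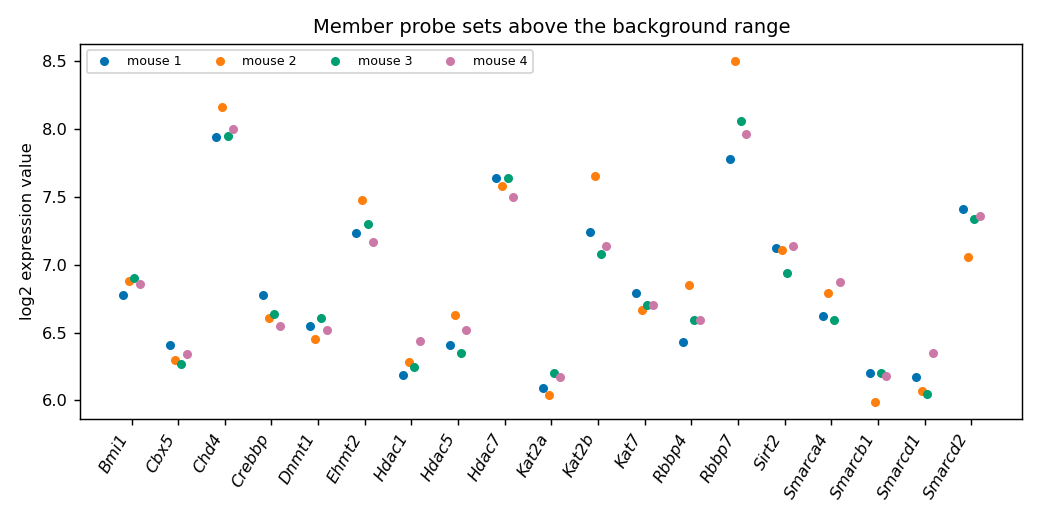
Log2 expression value (vertical axis) of each of the 19 member probe sets above the background range, with 1 point per mouse. Rbbp7 and Kat2b have the mice furthest apart, with mouse 2 on top at 8.50 and 7.65.

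For the genes on which the account turns, the start regions were read from the RefSeq promoter table (GRCm38.p6, 250 bases before to 50 after the annotated start). A window was listed for 50 of the 60 genes, 66 windows in all. Ehmt2 is shown as the enzyme of the series title, and Rbbp7 and Rbbp4 as related genes with the same highest and lowest mouse. Kat2b is shown as a member with few CG steps. Each is written 5' to 3' on the strand of the gene, with every CG dinucleotide in capitals. They lie at chr17:34898224-34898523 on the + strand (the first of 2 windows listed for the gene), chrX:162760122-162760421 on the + strand, chr4:129335321-129335620 on the - strand and chr17:53566721-53567020 on the + strand (the first of 2).
Ehmt2: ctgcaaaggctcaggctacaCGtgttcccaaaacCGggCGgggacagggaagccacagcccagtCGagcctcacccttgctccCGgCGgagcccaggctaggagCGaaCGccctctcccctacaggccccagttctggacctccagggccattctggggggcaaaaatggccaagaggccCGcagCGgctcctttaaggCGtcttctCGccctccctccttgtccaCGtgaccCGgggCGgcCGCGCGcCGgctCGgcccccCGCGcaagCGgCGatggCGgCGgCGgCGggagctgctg
Rbbp7: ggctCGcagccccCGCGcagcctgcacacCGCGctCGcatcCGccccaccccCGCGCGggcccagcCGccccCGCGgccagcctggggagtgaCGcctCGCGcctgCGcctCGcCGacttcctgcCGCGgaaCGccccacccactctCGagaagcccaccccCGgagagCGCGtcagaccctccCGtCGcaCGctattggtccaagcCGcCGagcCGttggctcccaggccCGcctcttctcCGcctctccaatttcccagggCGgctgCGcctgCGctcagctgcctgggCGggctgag
Rbbp4: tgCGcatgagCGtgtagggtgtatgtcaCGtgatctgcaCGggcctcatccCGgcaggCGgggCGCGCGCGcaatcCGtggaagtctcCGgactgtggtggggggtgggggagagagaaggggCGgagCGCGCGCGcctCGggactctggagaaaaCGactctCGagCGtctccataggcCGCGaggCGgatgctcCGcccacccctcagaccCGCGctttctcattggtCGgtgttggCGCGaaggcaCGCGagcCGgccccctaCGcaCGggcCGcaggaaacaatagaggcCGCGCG
Kat2b: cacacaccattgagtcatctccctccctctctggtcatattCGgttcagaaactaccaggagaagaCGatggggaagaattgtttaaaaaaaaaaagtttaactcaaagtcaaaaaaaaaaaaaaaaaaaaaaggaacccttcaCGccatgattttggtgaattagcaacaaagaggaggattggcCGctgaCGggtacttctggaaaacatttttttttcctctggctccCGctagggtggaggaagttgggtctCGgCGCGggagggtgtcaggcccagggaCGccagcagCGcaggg
The Ehmt2 window holds 28 CG dinucleotides, that of Rbbp7 38, that of Rbbp4 39 and that of Kat2b 11. Over all 66 member windows the median was 26.5, against 13.0 over 21263 windows of 17492 protein-coding genes. Members above the range had a median of 23.0 over 27 windows and those not above 28.0 over 39, and single windows ran from 2 to 49 and from 0 to 47. The GC box, GGGCGG on either strand, was in 66.7% of member windows and 46.2% of all protein-coding windows. TATAAA on either strand was in 3.03% of member windows, the 2 windows being one of Smarcd2 and one of Kdm5d, and in 12.60% of all. CCAAT on either strand, which can overlap a GC box, was in 42.4% and 38.2%. These are descriptions of sequence, with no test, and windows of a gene can overlap.

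Several member genes gave different readings by different probe sets. Of the 60 genes, 15 were read by several, 34 probe sets in all. For 6 of the 15 (Cbx5, Dnmt1, Kat2b, Kat7, Smarca4 and Smarcd2) some probe sets were above the range and others were not, against 35.0% of all 2073 such genes. The means of one gene lay 3.94 log2 units apart for Smarca4, whose second probe set had 2.84, 2.68, 2.72 and 2.89, and 3.83 apart for Kat2b. They lay 0.25 or less apart for Cbx2, Cbx6 and Smarcad1. Of 12 member genes with exactly 2 probe sets, 5 had the same highest mouse by both, against 30.7% of all such genes. In the other 7 the 2 probe sets of the gene placed different mice highest. Of the 79 probe sets 12 carry a name ending that marks shared or less specific probes, as do 2808 of all 12422. Of these 12, 3 were above the range (Chd4, Crebbp and Smarcd2), near the 24.5% of all probe sets with such endings. In 5 of the 79 (6.33%, against 5.09% of all probe sets) 1 mouse stood apart by Dixon's criterion, which chance meets in about 1 of 20 cases.

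**Figure D3:**
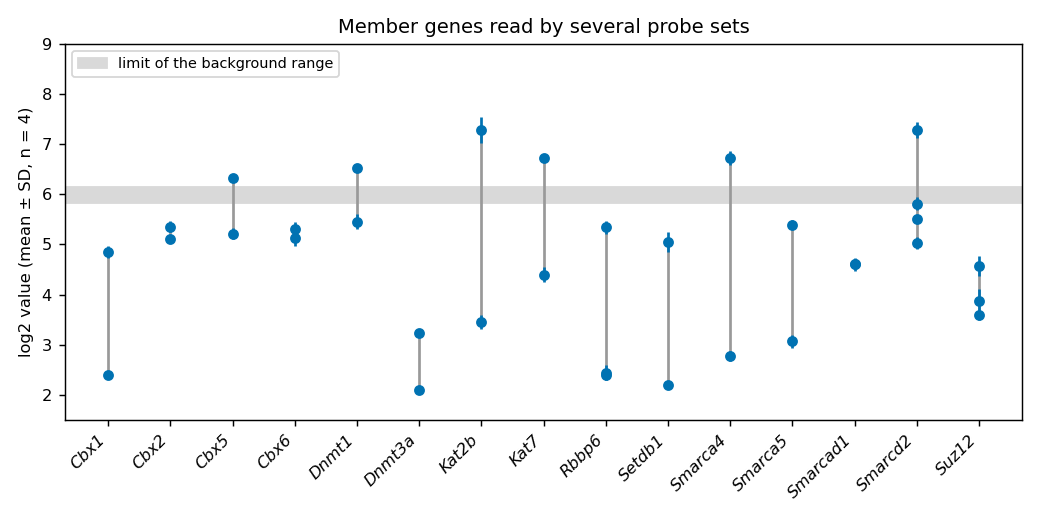
Mean log2 value with SD over 4 mice for each probe set of the 15 member genes read by several, probe sets of a gene joined by a line. The grey band is the limit of the background range, which the lines of 6 genes cross.

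The remaining question was whether the 4 mice differed in any member beyond the spread usual on these arrays. None of the 79 was called at an adjusted p of 0.05 by limma's variance model, against 35 of 12422 probe sets (0.282%), or 23 without mouse 2 and 17 without mouse 4. At an unadjusted p under 0.05 stood 3 members (3.80%), against 5.44% of all probe sets. The median SD of the 79 members was 0.119, against 0.112 for all probe sets, and none had a range over 1 log2 unit, which 0.757% of all probe sets had. A range over 0.5 was seen in 5 members (6.33%, against 8.54% of all).

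**Figure D4:**
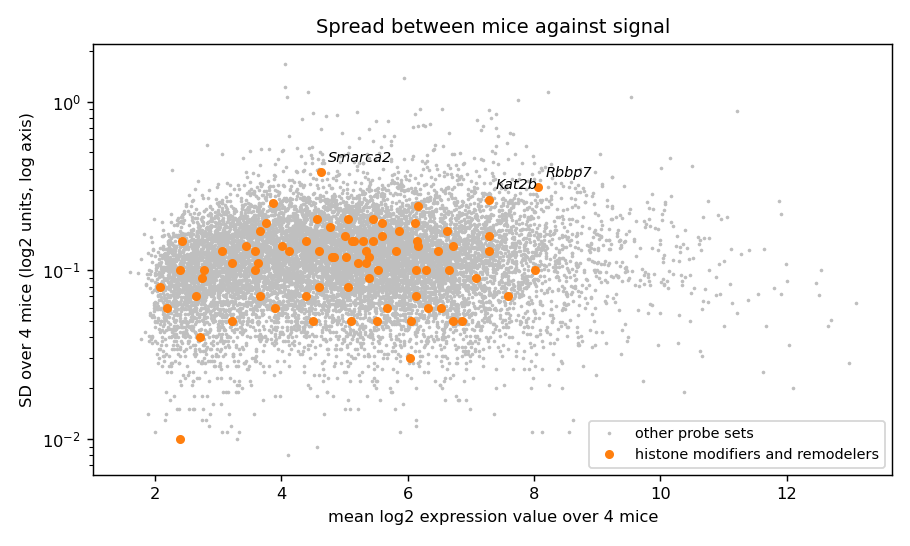
SD over 4 mice (vertical log axis) against mean log2 value (horizontal axis) for the 79 member probe sets (orange) among all others (grey). Members lie within the cloud, and Smarca2, Rbbp7 and Kat2b, the 3 with an unadjusted p under 0.05, lie in its upper part.

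Those 3 members were all highest in mouse 2. Smarca2 spanned 0.88 log2 units (1.84-fold, SD 0.38, unadjusted p = 0.00668, adjusted p = 0.474, limma), Rbbp7 0.72 (1.65-fold, SD 0.31, unadjusted p = 0.0215, adjusted p = 0.741, limma) and Kat2b 0.56 (1.48-fold, SD 0.26, unadjusted p = 0.0487, adjusted p = 0.908, limma). Without mouse 2 their SDs were 0.13, 0.14 and 0.08. The 3 were picked by low p and each had mouse 2 on top, so smaller SDs without it follow from that choice. In that setting 0 members had an unadjusted p under 0.05 (limma), against 5.28% of all probe sets. None of the 3 passed the adjusted threshold, so these are values and not calls. The other members with a range over 0.5 were Suz12, by the probe set at 3.87, with 0.60 and mouse 4 lowest, and Carm1 with 0.55 and mouse 2 lowest.

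Of the 10 members above the range with the largest SD, 6 were highest in mouse 2 (Rbbp7, Kat2b, Rbbp4, Ehmt2, Hdac5 and Chd4). Those 10 were picked by their spread in these data, and no matching share over all probe sets is given. Of all 19 members above the range the same 6, or 31.6%, were highest in mouse 2, against 29.9% of all probe sets above the range. Of all 79 members 24.1% were highest in mouse 2, against 21.6% of all probe sets. Both shares were thus near those of the array. Over the 79 members the median deviation from each probe set's own 4-mouse mean was -0.010, -0.008, -0.012 and 0.008 in mice 1 to 4, against 0.008, -0.033, 0.005 and 0.009 over all probe sets. By class, the Rbbp genes had the largest median deviations, at -0.18, 0.21, -0.03 and -0.05. These are medians over 5 probe sets, 3 of them of Rbbp6 with means of 5.34, 2.44 and 2.40. They therefore do not describe Rbbp4 and Rbbp7 alone. The arginine methyltransferases had -0.09, -0.15, 0.09 and 0.06, lower in mouse 2, and Polycomb complex 2 had 0.02, 0.13, 0.09 and -0.14. Marker lists of cell types also differed between the mice. Luminal epithelial probe sets had median deviations of -0.06, 0.14, -0.10 and -0.04 in mice 1 to 4 with 10 of 14 genes above the range, and smooth muscle probe sets had 0.31, -0.16, -0.01 and -0.14 with 11 of 13 above, highest in mouse 1. An unadjusted p under 0.05 (limma) was seen in 8 of 15 smooth muscle and 2 of 19 luminal epithelial probe sets. Over all 31 B and plasma cell probe sets the median deviations were -0.05, 0.07, 0.04 and -0.07. The 6 above the range (4 of 11 genes) had -0.21, 0.44, 0.25 and -0.59. Of the 31, 13 had an unadjusted p under 0.05 and 4 were called by limma, and no other of these lists had calls. Over all 25 macrophage and dendritic cell probe sets the medians were 0.00, 0.03, 0.08 and -0.08, and 9 had an unadjusted p under 0.05 (limma). The 7 above the range (7 of 19 genes) had -0.11, 0.08, 0.25 and -0.25. For the beta-actin control, the 3' end exceeded the 5' end by 1.08, 0.82, 1.02 and 0.98 in the same order of mice. The same difference for the Gapdh control was -0.12, -0.15, -0.15 and -0.13, nearly equal in the 4 mice. The part of cell types and RNA quality in the values of Rbbp7, Kat2b and Smarca2 was not tested.

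**Figure D5:**
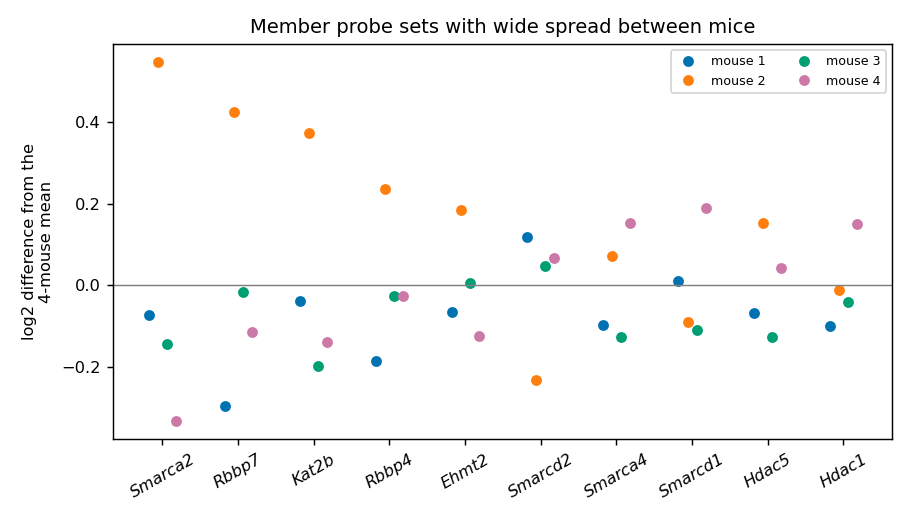
Log2 difference of each mouse from the 4-mouse mean (vertical axis) for Smarca2 and the 9 members above the background range with the largest SD (for Kat2b, Smarcd2 and Smarca4 the probe set above the range). Mouse 2 is highest for Smarca2, Rbbp7, Kat2b, Rbbp4, Ehmt2 and Hdac5, and lowest for Smarcd2.

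Genes that work with the members but fall outside the pattern were taken from a list of their partners, 76 genes by 112 probe sets. Of the 76 genes 28 were above the range, against 30.4% of all genes. Of the 112 probe sets 28 were above it, against 24.9% of all probe sets. None of these probe sets was called by limma, with 4 at an unadjusted p under 0.05 (3.57%, against 5.44% of all). Deacetylase corepressor partners were above in 6 of 10 cases, among them the NuRD subunits Gatad2a (7.18, 7.24, 7.32 and 7.02), Mbd3 (7.91, 7.89, 7.97 and 8.10) and Mta2 (6.57, 6.43, 6.55 and 6.36). The other 3 probe sets of Gatad2a were not above, with means of 4.78, 4.63 and 3.02, nor was Mbd2, a relative of Mbd3, at 4.11 ± 0.12 (SD, n = 4). Remodeling partners were above in 8 of 16 cases, including the BAF subunit Arid1a (7.59, 7.72, 7.69 and 7.73), Baz1b (7.14, 7.39, 7.40 and 7.33), a partner of Smarca5, and Baz2a (6.52, 6.97, 6.92 and 6.78), another. Other probe sets of Arid1a, with means of 5.18 and 2.76, and of Baz1b, with 5.50, were not above. KMT2 and other methyltransferase genes had 6 of 14, including the H3K4 methyltransferase subunits Dpy30 (7.06, 6.71, 6.85 and 6.86) and Hcfc1 (6.38, 6.47, 6.30 and 6.40), and the H4K20 methyltransferase Kmt5a (7.05, 7.11, 7.20 and 7.15). The second Hcfc1 probe set was not above, with a mean of 3.57. Polycomb partners had 3 of 12 (Phf1, Scmh1 and Yy1), acetyltransferase partners and readers 2 of 8 (Brd2 and Hat1), histone chaperones 2 of 7 (Asf1a and Supt6; Yy1, Hat1 and Asf1a each by 1 of 2 probe sets), other enzymes 1 of 3 (Jmjd6) and DNA methylation partners 0 of 6. The 4 partner probe sets with an unadjusted p under 0.05 read Pbrm1 (4.19, 4.75, 4.50 and 4.03), Kmt2e (5.62, 6.27, 5.73 and 5.88), Arid2 (5.53, 5.98, 5.60 and 5.35) and Chaf1b (4.39, 3.96, 4.58 and 4.46). The first 3 were highest in mouse 2 and the last lowest there, and none was above the range in all mice.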

How the data were processed

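Seminal vesicle RNA of 4 mice was measured on Affymetrix Mu74AV2 arrays, 1 per mouse. The deposited values are log2 expression per probe set, for which the submitters' processing notes name RMA. No source used here gives its version or the arrays it was run over, and the log2 scale was read from the values. With RMA, a difference in a dim probe set appears too small, and a shift common to a whole array is lost.

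Of 12488 probe sets 66 controls were left out. The platform annotation named 10833 probe sets by a single gene. Each variance over 4 arrays (3 residual degrees of freedom) was set against limma's robust, trended prior (8.06 degrees of freedom) by an upper-tail F test, with Benjamini-Hochberg adjustment over 12422 probe sets. The test was checked on simulated data. Members, classes, lists and the limit were chosen with earlier results of these data known. Named in full were members above the range, Polycomb complex 2 and H3K9 members, those of low p or with an outlying mouse, and partners by alphabetical order within a complex or low p; genes named otherwise were chosen after their values were seen. Precision is limited by the number of arrays, 4. R 4.3.3 with limma 3.58.1, Python 3.11.15 and matplotlib 3.10.9 were used.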

Additional observations from a re-analysis of the deposited data

Results flagged for a closer look

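Of the 79 member probe sets 5 (6.33%) had 1 mouse whose gap to the nearest other, as a share of the group's range, exceeded Dixon's 95% critical value for 4 samples, against 5.09% of all probe sets. Chance flags about 1 in 20. Smarcb1 was lowest in mouse 2 (gap over range 0.880, 5.99 against 6.18 to 6.20) and Sirt2 lowest in mouse 3 (0.832, 6.94 against 7.11 to 7.14). Hdac6 was highest in mouse 2 (0.855, 6.09 against 6.02 to 6.03). A Smarcd2 probe set under the limit in every mouse was highest in mouse 4 (0.887, 6.01 against 5.73 to 5.76). So was a dim Cbx1 probe set (0.900, 2.41 against 2.40). All 5 gaps are small on the log2 scale, and limma called none of these probe sets.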

How the results depend on the processing

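Counts above the background range depend on its limit. Member probe sets above it numbered 36 with the 75th percentile, 12 with the 95th and 40 with each array's median, and member genes 33, 12 and 35, against 19 and 19. Partner genes went from 28 to 46 with the 75th percentile and 48 with the array median. The members' share stayed within 5 percentage points of that of all probe sets under each of these limits. No member was called by limma under any alternative (other prior fits, both rescalings, filters on dim probe sets, leaving out each mouse), and the lowest adjusted p over these ran from 0.287 to 0.979. Members with an unadjusted p under 0.05 numbered 0 without mouse 2, against 5.28% of all probe sets. They numbered 4 (5.06%) without mouse 1 or mouse 4, against 5.80% and 5.56%, and 5 without mouse 3 (6.33%, against 6.03%). Calls over all probe sets, 35 as reported, numbered 31, 23, 44 and 17 without mouse 1, 2, 3 and 4, 15 with a non-robust prior, 25 with a prior without a trend, 24 with arrays shifted to the same median and 29 after quantile normalization. They numbered 1 among 6211 probe sets above the median signal and 0 among 3486 above the mean background limit, where 5.51% had an unadjusted p under 0.05. The median deviations of all members are near 0 and changed with the summary. That of mouse 1 was -0.027 with 1 probe set per gene, -0.026 with arrays shifted to the same median and -0.032 over members above the range. That of mouse 2 was 0.011 with 1 probe set per gene, 0.009 as a mean and 0.013 after quantile normalization. That of mouse 3 was -0.002 as a mean and -0.024 with arrays shifted to the same median. Leaving out mice, a choice added after the data were seen like all alternatives for partners and repeated probe sets, gave -0.014 to -0.005 for mouse 1, -0.016 to -0.002 for mouse 2, -0.014 to -0.001 for mouse 3 and 0.009 to 0.020 for mouse 4. The cause of these changes was not tested. With arrays shifted to the same median, 7 of 19 members above the range were highest in mouse 2, against 35.1% of all probe sets above it. After quantile normalization 6 of 19 were, against 24.1%. The array's own share thus moved with the scaling, from 29.9% as reported. Among the 10 members of largest SD, 6 were highest in mouse 2 after either rescaling. Those 10 were picked by their spread in these data, so that count is no check. No paired analysis was possible because the labels give 1 group.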
